A study of Arabidopsis thaliana with 6 samples.

Results

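The genes described here are the Arabidopsis thaliana beta-glucosidase and beta-galactosidase genes that an Affymetrix expression array measured in seedlings of a wild type and of its mutant esd7-1. Members were taken by name: a gene with a probe set of its own whose symbol starts with BGLU, BGAL, BXL or TGG followed by a number, together with PYK10. The rule found 22 of the 13356 genes with a probe set of their own. These are 20 BGLU genes, PYK10 (also known as BGLU23) and 1 beta-galactosidase gene, BGAL16, so the galactosidase part of the name rests on a single gene. The gene table holds 62 genes that fit the rule by symbol. The classical myrosinase genes TGG1 and TGG2, the beta-xylosidase genes BXL1 to BXL3 and the rest of the 40 genes outside the 22 were not analysed here. A gene of the family listed under another symbol, ATA27 (BGLU20), falls outside the rule. Its probe set read between 3.35 and 3.58 on the 6 arrays, near the lowest levels of the array.

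The wild type is the accession Landsberg erecta (Ler), from which esd7-1 is known to derive. ESD7 encodes the catalytic subunit of the replicative DNA polymerase epsilon, and esd7-1, the single mutant allele studied, is known for early flowering. Seedlings of both genotypes grew in short days and were collected at 14 days, 8 h after dawn. Each genotype has 3 arrays, each made from its own independent pool, and no label says that replicate numbers pair the pools. Seedling RNA mixes cell types, so fewer cells of a type and less RNA per cell cannot be told apart.

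Plant beta-glucosidases of glycoside hydrolase family 1 split glucose from small molecules that the cell stores as inactive glucosides. Their substrates include glucosinolates, flavonols, coumarins, monolignols and the hormone abscisic acid, so the family is known from defence, lignification and hormone release. PYK10 is packed in large amounts into ER bodies, spindle-shaped outgrowths of the endoplasmic reticulum that are frequent in roots and seedlings. There the enzyme is kept apart from its substrates until the cell is damaged. Beta-galactosidases such as BGAL16 belong to glycoside hydrolase family 35 and are known mainly for trimming galactose from cell wall polysaccharides.

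The values are log2 levels per probe set on 22746 plant probe sets, and the median array level lay between 4.81 and 4.89. The level of a probe set depends on its probes as well as on its transcript, so levels of different genes are ranked against all probe sets and not against each other. Arrays esd7-1 replicate 3 and Ler replicate 2 differ from the other 4 in their bacterial poly-A controls, RNAs added to the sample that hold no plant RNA. Those controls averaged 6.53 and 7.29 on these 2 arrays, against 5.74 to 5.89 on the others. No label sets these 2 arrays apart, and the split was made with earlier results of these data known. Results are therefore given between genotypes, and separately between these 2 arrays and the other 4, the second as a description without a test. The leaf photosynthesis genes RCA and PSAN were among the brightest on every array, at 12.75 to 13.76. Genes on a fixed list are called measured when the annotation gave them a probe set of their own. The other listed genes were not analysed here, whether or not the array holds probes for them. Of 14 root markers fixed as a list, EXPA7 and EXPA18, both root-hair expansins, were measured besides PYK10 itself.

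Levels within the family spread from the top to the bottom of the array. PYK10 and BGLU44, which is known to act on beta-mannosides, had mean levels of 11.01 and 10.20. These levels lay at percentiles 98.5 and 97.0 of all probe sets. BGLU16, BGLU25 and BGLU42 followed at 6.84, 6.83 and 6.70, near percentile 75. BGLU40, BGLU15, BGLU33, BGLU46 and BGLU47 lay between 4.59 and 5.42. The other 12 genes had means between 3.28 and 4.28, below the 40th percentile of mean level (4.33), where 45.3% of all genes lie. At such levels a transcript cannot be told from background with these values, and a small difference does not show that a transcript was present and unchanged.

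**Figure D1:**
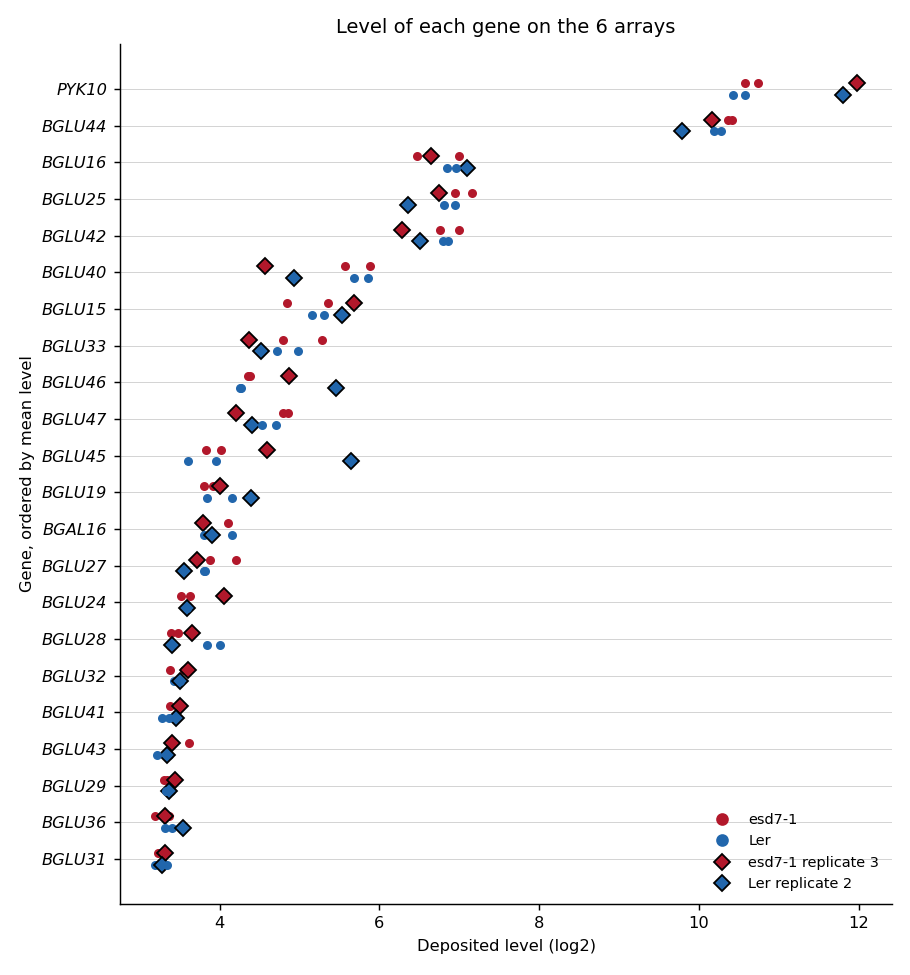
Deposited log2 level (horizontal axis) of each of the 22 genes, ordered by mean level, with 1 point per array. Circles are the 4 arrays with lower poly-A controls and diamonds are esd7-1 replicate 3 and Ler replicate 2. For 11 genes both diamonds lie outside all circles, 4 to the right, among them PYK10 and BGLU45, and 7 to the left, among them BGLU40.

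No gene of the family passed the test between esd7-1 and Ler. In limma, fitted over all 22746 probe sets with Benjamini-Hochberg adjustment, 0 of 22 passed an adjusted p of 0.05. None of all probe sets passed either (0.00%). Without adjustment, 0 of 22 had a limma p under 0.05, against 5.78% of all probe sets and 5.26% of all genes. Of the 22 genes, 11 read higher and 11 lower in esd7-1, and 52.0% of all probe sets and 54.7% of all genes read higher. Their differences ran from -0.26 to 0.25 on the log2 scale with a median of 0.00, and the median over all genes was 0.02. The lowest adjusted p in the family was 0.846 in limma. With a term for the 2 arrays with high poly-A controls, 0 of 22 passed and the lowest adjusted p was 0.468.

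BGLU25 had the highest positive difference in the family. It read 7.16, 6.95 and 6.74 in esd7-1 replicates 1 to 3 and 6.81, 6.36 and 6.94 in Ler replicates 1 to 3. The genotypes overlap, and Ler replicate 2 is the lowest of the 6. The difference was 0.25 with a limma standard error of 0.19 and a 95% interval of -0.20 to 0.69. BGLU44 read 10.41, 10.36 and 10.16 in esd7-1 and 10.28, 9.79 and 10.19 in Ler. Again the lowest value is that of Ler replicate 2, and the difference was 0.22, with an interval of -0.15 to 0.60.

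Lowest in esd7-1 relative to Ler was BGLU16, at 6.47, 6.99 and 6.65 in esd7-1 and 6.84, 7.10 and 6.96 in Ler. Its second esd7-1 value lies inside the Ler range, so the groups overlap. The difference of -0.26 (standard error 0.16) had a limma adjusted p of 0.846. Without esd7-1 replicate 2 the difference was -0.41, at a limma adjusted p of 0.480. BGLU28, known to be induced when sulfur is short and to break down glucosinolates, read 3.39, 3.48 and 3.65 in esd7-1 and 3.84, 3.40 and 4.00 in Ler. Ler replicate 2 alone falls within the esd7-1 values. With all arrays BGLU28 differed by -0.24, and with the 2 arrays left out by -0.49, at an adjusted p of 0.356 in limma. All of its values lie in the dim range.

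BGLU43 was the 1 gene of the 22 whose 3 values in one genotype all lay above those in the other, where 11.3% of probe sets and 11.0% of genes have no overlap. It read 3.62, 3.42 and 3.41 in esd7-1 and 3.36, 3.34 and 3.21 in Ler. The lowest esd7-1 value exceeds the highest Ler value by a small step, at a level at percentile 7.5 of all probe sets. The difference was 0.18 (standard error 0.11), with a limma adjusted p of 0.846.

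Among genes with a known role, BGLU15, BGLU33 and BGLU42 showed small differences between genotypes and wide intervals. BGLU15, which hydrolyses flavonol glycosides, differed by -0.04 (95% interval -0.58 to 0.50). BGLU33, which releases abscisic acid from its glucose ester in the vacuole, differed by 0.07 (-0.51 to 0.66). For BGLU42, which acts in the root response to beneficial bacteria and in the release of coumarins, the difference was -0.05 (-0.53 to 0.44). PYK10 differed by 0.17 with an interval of -1.01 to 1.34, and BGLU45 by -0.26 with an interval of -1.52 to 1.01. These 2 intervals are the widest of the family, and both genes have their extreme values on the 2 arrays with high poly-A controls.

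**Figure D2:**
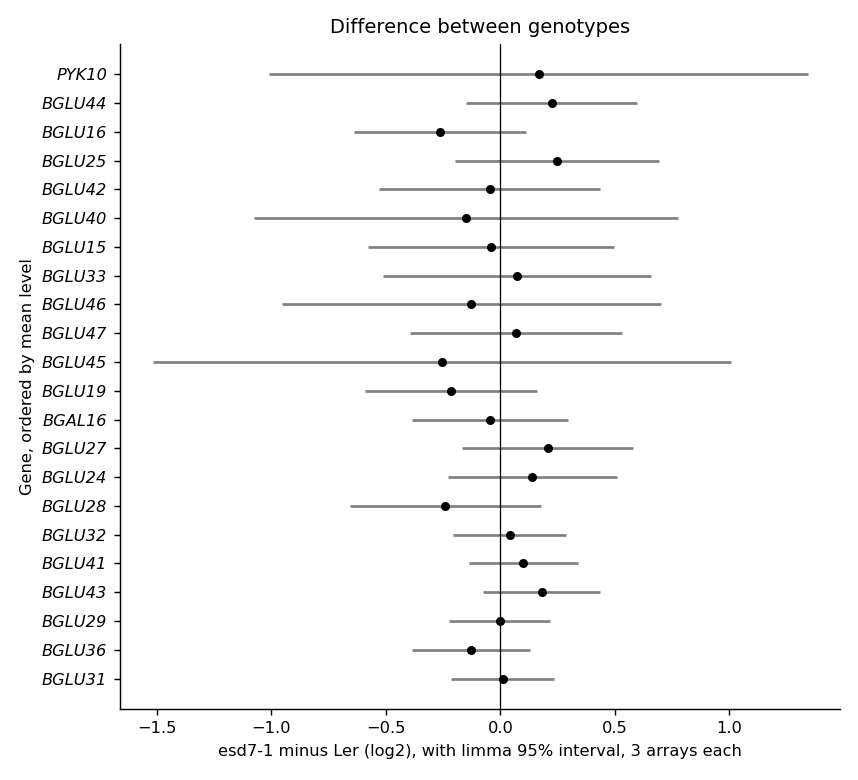
Difference between esd7-1 and Ler (log2, horizontal axis) for each of the 22 genes, ordered by mean level. Points are differences of means over 3 arrays each and lines are limma 95% intervals. All 22 intervals include 0, and those of PYK10, BGLU45, BGLU40 and BGLU46 are the widest.

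Many genes of the family had their extreme values on the arrays esd7-1 replicate 3 and Ler replicate 2. For 11 of 22 genes both arrays lay outside the range of the other 4, against 28.0% of all probe sets and 26.2% of all genes. Both lay above in 4 genes (13.7% of probe sets and 12.9% of genes) and below in 7 (14.3% and 13.3%). Among these, counting genes with a difference of at least 1 log2 unit, PYK10 and BGLU45 were set apart, both higher (2 of 22, against 1.61% of probe sets and 1.32% of genes). None was set apart as lower, where the shares were 0.796% and 0.629%. BGLU40, at -0.998 just short of that limit, was the nearest gene outside it, and BGLU46, at 0.85, the next. The median of this difference over the 22 genes was 0.05, beside 0.01 over all genes.

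PYK10 read 10.74, 10.57 and 11.98 in esd7-1 replicates 1 to 3 and 10.42, 11.80 and 10.57 in Ler replicates 1 to 3. The other 4 arrays fall within a narrow band in both genotypes, and the 2 arrays stand well above it. The array difference was 1.32 on the log2 scale, or 2.49-fold, at percentile 99.3 of all genes. It was 1.33 within esd7-1 and 1.31 within Ler, and the spread of the other 4 arrays within genotypes was 0.11 (SD). Between genotypes PYK10 differed by 0.16 among the other 4 arrays and by 0.18 between the 2.

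Other genes of the ER body and of the PYK10 complex also read high on these arrays. The list of ER body and PYK10 complex genes held 16, of which 6 had a probe set of their own. The others were not analysed here. Among the 6, both arrays lay above the other 4 in 4, against 12.9% of all genes, and below in 0, against 13.3%. Their median array difference was 0.90, beside 0.01 over all genes. NAI2, a protein that ER bodies need to form, read 5.49, 5.0 and 7.57 in esd7-1 and 5.01, 7.42 and 4.80 in Ler. The 2 arrays are more than 1 log2 unit above every other one, and the difference of 2.42 is 5.35-fold. NAI1, the bHLH transcription factor known to be required for ER bodies and for PYK10 expression, read 5.59, 5.66 and 6.22 in esd7-1 and 5.49, 6.50 and 5.60 in Ler. Its difference was smaller, at 0.78, with both arrays again above the rest.

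The lectins of the PYK10 complex were divided. JAL33 and JAL34, jacalin-related lectins, differed by 1.23 and 1.02 on the 2 arrays. JAL34 read 8.71, 9.04 and 10.20 in esd7-1 and 8.65, 9.46 and 8.85 in Ler. JAL22, another lectin of this family, did not share the pattern: it read 8.97, 9.29 and 9.02 in esd7-1 and 8.29, 7.14 and 8.38 in Ler. Ler replicate 2 is the lowest value, while esd7-1 replicate 3 lies between its own replicates, and the array difference was -0.65. JAL22 is also the 1 gene of the 6 measured on this list with a limma p under 0.05 between genotypes, at 0.0109. Over all genes, 5.26% had such a p. All 3 esd7-1 values of JAL22 lie above all Ler values, and 11.0% of all genes have no overlap in either direction. The mean difference was 1.16 with a standard error of 0.33, but the limma adjusted p was 0.806. JAL23 differed by -0.10 between the 2 arrays and the rest, at a dim level.

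**Figure D3:**
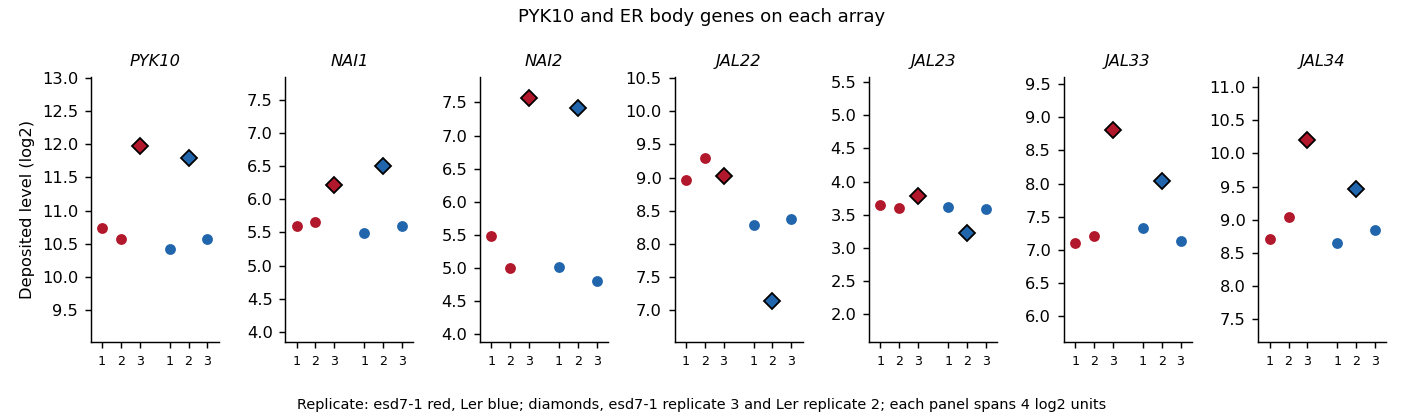
Deposited log2 level (vertical axis, each panel spanning 4 log2 units around the gene's mean) of PYK10 and the 6 measured ER body and PYK10 complex genes on each array (horizontal axis, replicate number). Red is esd7-1, blue is Ler, and diamonds are esd7-1 replicate 3 and Ler replicate 2, which are the 2 highest points for PYK10, NAI1, NAI2, JAL33 and JAL34 and not for JAL22 or JAL23.

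Root and glucosinolate genes also differed on the same 2 arrays. The mean level of the 2 measured root markers other than PYK10 was 5.04 and 4.60 on the 2 arrays and between 4.08 and 4.41 on the others. Of these markers, EXPA7 had a mean level of 4.11, in the dim range, so the size of its difference is not fixed by the values. EXPA7 was higher by 0.87 and EXPA18 by 0.32, and for both genes the 2 arrays were the 2 highest. For EXPA18 this rests on a small step, with Ler replicate 2 at 4.81 and esd7-1 replicate 1 at 4.79. The 2 arrays were also the 2 highest for the leaf gene RCA, for the guard cell gene FMA and for 12.9% of all genes. They were not for PSAN or for the guard cell genes SPCH and MUTE. Of 32 glucosinolate synthesis genes fixed as a list, 3 had a probe set of their own, and the others were not analysed here. All 3 measured genes were set apart as lower, against 0.629% of all genes. The differences were -2.75 for BCAT4, which starts methionine chain elongation, and -2.31 for AOP3, which modifies the side chain. For UGT74B1, which adds the glucose, the difference was -1.36. RCA and PSAN differed by 0.17 and 0.08. The part of root RNA, of the poly-A controls or of other differences between the pools in the PYK10 values was not tested.

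Among genes of lignin glucosides, BGLU45 and BGLU46, which release monolignols from their glucosides, both read highest on the 2 arrays. BGLU45 read 3.83, 4.02 and 4.59 in esd7-1 and 3.61, 5.65 and 3.95 in Ler. Ler replicate 2 stands about 1 log2 unit above the next array, which is esd7-1 replicate 3. The array difference was 1.27, with 0.67 within esd7-1 and 1.87 within Ler. BGLU45 averaged 3.85 on the other 4 arrays, in the dim range, so the size of these differences is not fixed by the values, and without Ler replicate 2 the gene was not set apart. BGLU46 read 4.36, 4.38 and 4.87 in esd7-1 and 4.27, 5.46 and 4.26 in Ler. The 2 arrays lay in the same order, with a difference of 0.85. On the other 4 arrays BGLU46 averaged 4.32, below the 4.33 that bounds the dim range. The size of its difference is thus not fixed by the values either. The 2 genes are direct neighbours on chromosome 1, and each has a probe set that names it alone. BGLU47 read lower on the 2 arrays, at 4.86, 4.79 and 4.21 in esd7-1 and 4.71, 4.41 and 4.53 in Ler, a difference of -0.41.

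BGLU40 had the lowest difference of the family on the 2 arrays. It read 5.57, 5.88 and 4.57 in esd7-1 and 5.86, 4.93 and 5.68 in Ler. The other 4 arrays lie within 5.57 to 5.88, and the difference of the 2 from them was -0.998, at percentile 0.67 of all genes. The difference was -1.16 within esd7-1 and -0.84 within Ler, with a spread of 0.18 (SD) among the others. After each array was centred on its median the difference was -1.04, and after a second quantile normalization also -1.04, which puts BGLU40 past the limit of 1.

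Other genes of medium or high level were lower on both arrays by smaller amounts. BGLU33 differed by -0.50, BGLU42 by -0.46, BGLU25 by -0.42 and BGLU44 by -0.34. For BGLU42 the values were 6.76, 6.99 and 6.28 in esd7-1 and 6.86, 6.51 and 6.80 in Ler. Both arrays are below every other one, by more within esd7-1 (-0.60) than within Ler (-0.32). BGLU33 read 4.79, 5.28 and 4.37 in esd7-1 and 4.72, 4.52 and 4.98 in Ler, where the lower edge of the other 4 is close to the 2 arrays. BGLU15 lay on the other side, at 4.84, 5.35 and 5.68 in esd7-1 and 5.16, 5.53 and 5.30 in Ler, a difference of 0.44. For BGLU16 the 2 arrays did not both lie outside the others, and the difference was 0.06.

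**Figure D4:**
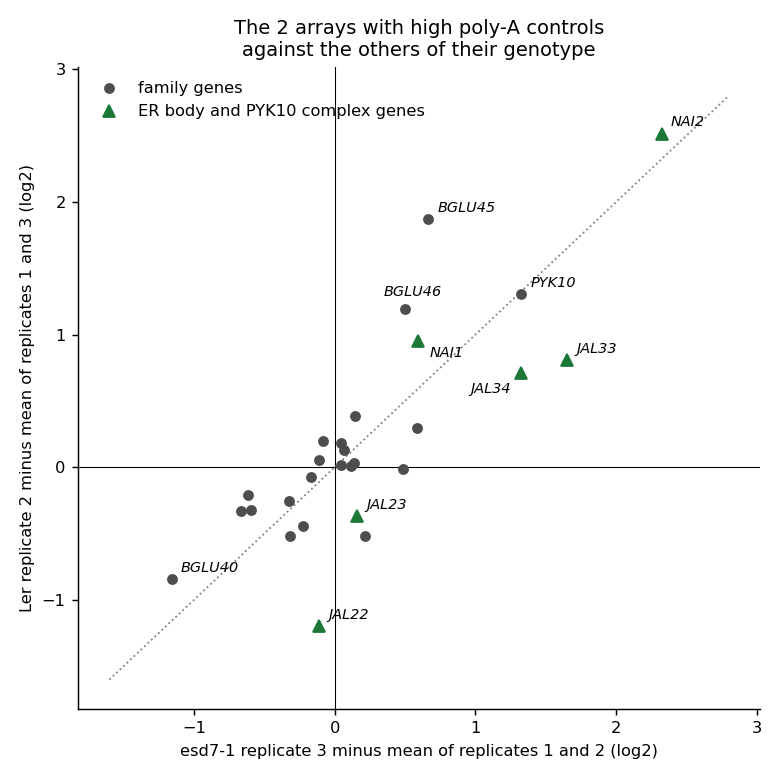
Difference of esd7-1 replicate 3 from the mean of the other esd7-1 arrays (horizontal axis, log2) and of Ler replicate 2 from the mean of the other Ler arrays (vertical axis, log2). Grey circles are the 22 family genes, green triangles are the 6 ER body and PYK10 complex genes, and the dotted line marks equal differences. PYK10 lies near the line at 1.33 and 1.31, BGLU45 above it at 0.67 and 1.87, and BGLU40 at -1.16 and -0.84.

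The 12 dim genes include BGLU45, described above, and 11 whose range over the 6 arrays was at most 0.65. BGLU19 read between 3.81 and 4.39, BGAL16 between 3.79 and 4.15 and BGLU27 between 3.56 and 4.21. BGLU27 was lower on both arrays, with a difference of -0.29. BGLU24 read 4.06 in esd7-1 replicate 3 and between 3.52 and 3.63 on the other 5 arrays. BGLU32, BGLU41, BGLU29, BGLU36 and BGLU31 had ranges of 0.14 to 0.35 over the 6 arrays, beside a median range of 0.49 over all genes. BGAL16, the single beta-galactosidase gene, differed by -0.05 between genotypes, with a 95% interval of -0.39 to 0.29.

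Several of the 22 genes are direct neighbours in the gene order of the TAIR10.1 assembly. BGLU45 and BGLU46 lie side by side on chromosome 1, BGLU15, BGLU28 and BGLU29 on chromosome 2, BGLU43 and BGLU44 as well as BGLU27 and BGLU16 on chromosome 3, and BGLU31 and BGLU32 on chromosome 5. Some neighbours read alike and others did not. BGLU45 and BGLU46 were both higher on the 2 arrays, and BGLU31 and BGLU32, both dim, varied by 0.15 and 0.23 over the 6. BGLU44 read at percentile 97.0 of level and was lower on the 2 arrays, whereas BGLU43 beside it read at percentile 7.5 and differed by -0.03. In the chromosome 2 group, BGLU15 was higher on both arrays, BGLU28 differed by 0.22 within esd7-1 and by -0.52 within Ler, and BGLU29 read between 3.30 and 3.44 throughout. BGLU16 and BGLU27 differed between genotypes in opposite directions, by -0.26 and 0.21, and neither passed the test.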

How the data were processed

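Levels were measured in 6 seedling RNA samples, 3 of esd7-1 and 3 of Ler, grouped by their titles. The deposited values are log2 levels per probe set with 2 decimals, made by the authors with RMA, per the submitters' processing notes, which also list limma and give no versions. RMA removes general shifts between arrays and compresses low levels. Of 22810 probe sets, 64 controls were left out. Gene names came from the platform annotation, updated through gene identifiers to the TAIR10.1 gene table: 13513 probe sets named 1 gene (13436 matched the table), 503 named several and 8730 were unnamed here. The brightest probe set stood for a gene, and each of the 22 genes had 1. No coordinates of the gene table are given.

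Genotypes were compared with limma 3.58.1 in R 4.3.3 (lmFit, eBayes, two-sided, Benjamini-Hochberg over 22746 probe sets, threshold 0.05). The fit was also run on simulated data with independent noise on each array. Those data held no effect shared by the 2 arrays with high poly-A controls, so that run does not cover such an effect. The difference on the 2 arrays with poly-A controls more than 0.5 above the median is the mean over genotypes of that array minus the mean of the other 2 of its genotype. A gene was set apart when both arrays lay above or below all other 4, by any margin, and this difference was at least 1. Members, lists and tests were chosen with earlier results of these data known. Genes named are those with a known role, the 8 largest genotype differences, the genes set apart, the 5 brightest and, per list, the largest differences. BGLU40 and the remaining members and list genes were named after their values were seen. No genes were analysed here in the lists for vascular, seed and myrosin cell markers, glucosinolate breakdown, lignin synthesis and other wall-trimming enzymes. The trichome, guard cell and senescence markers (1, 3 and 2 measured) had median array differences of 0.18, 0.05 and 0.05. The number of arrays limits the precision. Alternatives were the replicate block, a term for the 2 arrays, their removal, each array left out, both scalings, a trended and robust variance, array weights, removal of dim or shared probe sets, the mean over probe sets, and limits of 0.5 and 1.5.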

Additional observations from a re-analysis of the deposited data

How the results depend on the processing

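The count of 0 genes of the family called between genotypes held under every alternative run. Of these, the mean over probe sets is no check for the 22 genes, because each had 1 probe set. Removal of shared probe sets took out none of the 22, so it could not change their differences. Over all probe sets the count was 0, and it was 4 with the term for the 2 arrays, 4 with both left out, 33 with array weights and between 0 and 1 when single arrays were dropped (1 call without esd7-1 replicate 3). Array weights gave 4 of the 22 genes an unadjusted limma p under 0.05, BGLU16, BGLU27, BGLU28 and BGLU43, where 18.8% of probe sets and 18.2% of genes had one. The weights were 3.71 for esd7-1 replicate 1 and 0.25 for replicate 3. The replicate block gave 0 calls and changed no difference. Deviations from the genotype mean correlated at 0.54, -0.41 and -0.60 for numbers 1 to 3. They correlated at 0.63 for esd7-1 replicate 2 with Ler replicate 3 and at 0.59 for the 2 arrays with high poly-A controls. No label gives these last pairs, and they were not fitted. Deviations within a genotype depend on each other, so these values do not settle whether the pools were paired. Genes set apart on the 2 arrays numbered 2, and 3 with either scaling (BGLU40 added), 4 at a limit of 0.5 and 0 at 1.5, and 2 to 3 when single arrays were dropped. Without Ler replicate 2 the 2 were PYK10 and BGLU40, with BGLU45 lost at 0.665. Without esd7-1 replicate 3 BGLU46 was added, and without esd7-1 replicate 1 or Ler replicate 3 BGLU40. Signs, and ranges with single arrays dropped, were checked for 14 of the 22 genes and for JAL22 and JAL34, so the lists are not complete for the family. Outside the checked genes, BGLU24 turned from 0.14 to -0.025 with the 2 arrays with high poly-A controls left out. Among the checked genes, genotype differences whose sign turned were, with both arrays left out, BGLU42 0.045, BGLU45 0.145 and BGLU46 0.105. With a second quantile normalization they were BGLU15 0.027 and BGLU42 0.069, and with array weights JAL34 -0.026. When single arrays were dropped, ranges spanning 0 were PYK10 -0.275 to 0.602, BGLU15 -0.235 to 0.185, BGLU33 -0.16 to 0.295, BGLU40 -0.43 to 0.235, BGLU42 -0.203 to 0.152, BGLU45 -0.653 to 0.367, BGLU46 -0.328 to 0.272 and JAL34 -0.112 to 0.633. No value in these ranges passed. The cause was not tested. Array differences of PYK10 ran from 1.27 to 1.36 with each array left out, those of BGLU45 from 0.67 to 1.87. Low levels limit 12 of the 22 genes, and also BGLU46 on the arrays with lower poly-A controls.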
